A study of Mus musculus with 20 samples.

Results

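H3K27me3 peak lists were compared between Jmjd3 knockout (KO) and wild-type (WT) cells that both carried exogenous JMJD3. The comparison used 4 of the 20 samples, 1 library for each combination of genotype and day. On day 5 of reprogramming the lists held 5064 peaks in WT and 6539 in KO cells, and on day 10 they held 3045 and 4878, out of 53171 peaks in the 10 H3K27me3 lists of the series. All 4 libraries were chromatin immunoprecipitation followed by sequencing (ChIP-seq) of mouse embryonic fibroblasts (MEFs) transduced with Oct4, Sox2, Klf4 and c-Myc (OSKM) and made to overexpress Jmjd3. WT cells were labelled Wildtype with the strain C57BL/6J-OG2, and KO cells were labelled Jmjd3-/- with the strain C57Bl6J, so that by the labels genotype and strain cannot be told apart. The study also speaks of littermate WT and KO cells, and whether these libraries came from littermates was not stated in the labels. KO cells, like WT cells, received mouse JMJD3 from a vector, so both groups were given the enzyme. The labels name lentiviral OSKM delivery and the protocol retroviral pMXs vectors, with vitamin C in the medium, and no sorting of the cells was stated. The 6 other H3K27me3 lists, from OSKM cells with a FLAG control vector on the same days and from untreated MEFs of both genotypes, served for comparison.

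JMJD3, the product of Kdm6b, demethylates lysine 27 of histone H3. Trimethylation of this residue (H3K27me3) is written by Polycomb repressive complex 2 and marks silent genes, above all the CpG-rich promoters of developmental regulators. During reprogramming, fibroblast genes are silenced while epithelial and pluripotency genes are switched on, which for many of the latter involves loss of H3K27me3. Each listed peak is an interval of 1000 bp, and its score, of unstated scale, ran from 6.59 to 200 in these 4 lists. Since each group was 1 library, no difference below has a replicate check. Intervals are 95% Wilson intervals for shares, Newcombe intervals for differences and log-scale Poisson intervals for ratios. They describe counting error alone, although peaks close to each other are not independent. Fewer cells carrying the mark and less of the mark per cell cannot be told apart in such lists, and the read number behind each list was not used here.

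The sequences below show the range of base composition under these peaks. Peaks were called WT-only or KO-only when no base overlapped a peak of the other genotype on the same day, and shared otherwise. The 300 bases around the midpoint of 7 day 5 peaks follow, on the forward strand of GRCm38 (mm10), with every CpG dinucleotide in capitals. The first 4 are the best-scoring peaks within 1 kb of the transcription start site (TSS) of a protein-coding gene among the shared peaks of the KO list, the shared peaks of the WT list, the KO-only peaks and the WT-only peaks, with ties at a score of 200 taken in genome order. The other 3 are KO-only peaks at Cdh1, Tdh and Cdkn2a.
Tcf24 (shared, KO list), chr1:9967487-9967786: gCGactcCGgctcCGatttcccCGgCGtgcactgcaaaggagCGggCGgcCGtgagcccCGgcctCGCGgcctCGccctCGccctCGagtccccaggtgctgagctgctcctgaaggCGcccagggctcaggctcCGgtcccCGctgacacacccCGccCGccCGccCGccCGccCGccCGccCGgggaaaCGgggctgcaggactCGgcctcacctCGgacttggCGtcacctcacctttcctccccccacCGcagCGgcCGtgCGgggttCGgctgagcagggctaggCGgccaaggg
Gm10800 (shared, WT list), chr2:98666719-98667018: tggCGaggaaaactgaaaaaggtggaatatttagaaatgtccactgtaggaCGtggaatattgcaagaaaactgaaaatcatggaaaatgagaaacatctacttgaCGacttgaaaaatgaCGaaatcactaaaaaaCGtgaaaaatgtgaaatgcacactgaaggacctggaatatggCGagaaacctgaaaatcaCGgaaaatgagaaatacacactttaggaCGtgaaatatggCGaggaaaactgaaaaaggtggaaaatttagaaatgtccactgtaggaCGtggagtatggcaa
Neurog1 (KO-only), chr13:56252104-56252403: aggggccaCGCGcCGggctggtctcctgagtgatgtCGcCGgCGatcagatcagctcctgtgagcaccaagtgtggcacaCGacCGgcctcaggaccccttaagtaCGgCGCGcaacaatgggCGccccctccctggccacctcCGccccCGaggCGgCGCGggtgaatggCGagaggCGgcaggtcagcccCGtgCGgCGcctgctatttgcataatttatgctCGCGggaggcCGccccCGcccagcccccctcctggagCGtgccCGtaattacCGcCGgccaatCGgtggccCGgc
Lhx6 (WT-only), chr2:36103469-36103768: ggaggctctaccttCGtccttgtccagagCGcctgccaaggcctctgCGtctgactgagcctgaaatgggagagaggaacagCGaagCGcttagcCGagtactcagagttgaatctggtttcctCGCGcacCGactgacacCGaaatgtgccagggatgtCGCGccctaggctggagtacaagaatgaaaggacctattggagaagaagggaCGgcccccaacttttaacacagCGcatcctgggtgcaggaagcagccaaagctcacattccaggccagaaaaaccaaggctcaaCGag
Cdh1 (KO-only), chr8:106603077-106603376: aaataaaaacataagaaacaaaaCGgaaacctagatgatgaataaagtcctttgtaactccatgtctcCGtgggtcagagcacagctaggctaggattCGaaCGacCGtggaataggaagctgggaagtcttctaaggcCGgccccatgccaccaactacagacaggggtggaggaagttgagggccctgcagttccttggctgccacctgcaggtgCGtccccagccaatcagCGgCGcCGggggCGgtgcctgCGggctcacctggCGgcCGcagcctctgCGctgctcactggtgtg
Tdh (KO-only), chr14:63508648-63508947: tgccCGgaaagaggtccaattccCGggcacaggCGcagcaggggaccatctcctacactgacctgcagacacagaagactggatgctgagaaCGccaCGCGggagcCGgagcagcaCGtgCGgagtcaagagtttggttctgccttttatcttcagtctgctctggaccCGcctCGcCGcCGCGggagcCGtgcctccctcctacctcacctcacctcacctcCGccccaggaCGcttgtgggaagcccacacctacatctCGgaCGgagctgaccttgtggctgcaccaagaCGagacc
Cdkn2a (KO-only), chr4:89277304-89277603: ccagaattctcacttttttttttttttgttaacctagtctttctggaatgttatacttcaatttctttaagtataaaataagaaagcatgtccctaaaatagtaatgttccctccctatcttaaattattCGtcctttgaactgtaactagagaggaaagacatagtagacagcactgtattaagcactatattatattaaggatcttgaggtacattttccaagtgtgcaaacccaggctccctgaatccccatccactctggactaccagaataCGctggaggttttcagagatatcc
The windows at Tcf24 and Neurog1, which encode basic helix-loop-helix transcription factors, held 35 and 32 CpGs, with a GC content of 75.7% and 70.0%. The window at Lhx6, a LIM homeobox gene, held 15 CpGs and that at Cdh1 15, Tdh 20 and Cdkn2a 2. The Cdkn2a peak lay in an intron, 4738 bp from the nearest Cdkn2a TSS, whereas the midpoints at Cdh1 and Tdh were 124 and 294 bp from a TSS. The Cdh1 window lies in a KO-only peak that scored 6.77, and a second KO-only peak overlapping it scored 8.83. At Gm10800 the 1000 bp peak was 86.6% repeat-masked and was called in all 10 H3K27me3 lists. No peak was called within 5 kb of a Nanog TSS in any of the 4 libraries.

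KO cells with JMJD3 had more H3K27me3 peaks than WT cells with JMJD3 on both days. The KO/WT ratio of peak numbers was 1.29 (1.24 to 1.34) on day 5 and 1.602 (1.53 to 1.68) on day 10. Restricted to scores of 20 or more it was 1.57 on day 5 and 2.67 on day 10. The same ratio was 0.878 (0.847 to 0.910) on day 5 and 1.05 (1.01 to 1.09) on day 10 with FLAG, and 0.591 (0.569 to 0.615) in MEFs. Scores went the same way as the numbers. At the 3518 day 5 peaks with exactly 1 partner in the other genotype, the median score was 16.2 in WT and 25.4 in KO cells, and the KO score was the higher one at 76.5% (75.1 to 77.9). On day 10 the medians were 12.5 and 19.5 over 2055 such peaks, with the KO score higher at 75.5% (73.6 to 77.3). With FLAG the KO score was higher at 31.5% (30.1 to 33.0) of partnered peaks on day 5 and 52.7% (50.9 to 54.5) on day 10, and in MEFs at 14.4% (13.1 to 15.7). In each of the 5 genotype pairs the longer list was also the one with the higher median score at partnered peaks.

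By position, 3662 of the 5064 day 5 WT peaks overlapped a KO peak (72.3%, 71.1 to 73.5) and 1402 did not. Of the 6539 day 5 KO peaks, 3665 overlapped a WT peak (56.0%, 54.8 to 57.2) and 2874 were KO-only. For day 10, 2149 of 3045 WT peaks were shared (70.6%, 68.9 to 72.2), and the KO share was lower than on day 5, with 2159 of 4878 (44.3%, 42.9 to 45.7). The KO share was 11.8 points higher on day 5 than on day 10 (9.94 to 13.6), while the WT shares differed by 1.74 points (-0.284 to 3.78). With all lists at 3045 peaks the WT share, too, was higher on day 5, by 13.7 points (11.4 to 16.05). Shared peaks were close in number in the WT and KO lists (3662 and 3665 on day 5, 2149 and 2159 on day 10). In lists of equal length the WT and KO shares are therefore close by construction, as are the WT-only and KO-only counts. That closeness does not show that the genotypes were alike. The longer list of each pair was reduced by score to the length of the shorter one. Then 66.9% (65.6 to 68.2) of WT and 66.2% (64.9 to 67.5) of KO peaks were shared on day 5, leaving 1677 WT-only and 1713 KO-only peaks. For day 10 they were 60.5% (58.7 to 62.2) and 59.6% (57.9 to 61.3), with 1204 WT-only and 1230 KO-only peaks.

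**Figure D1:**
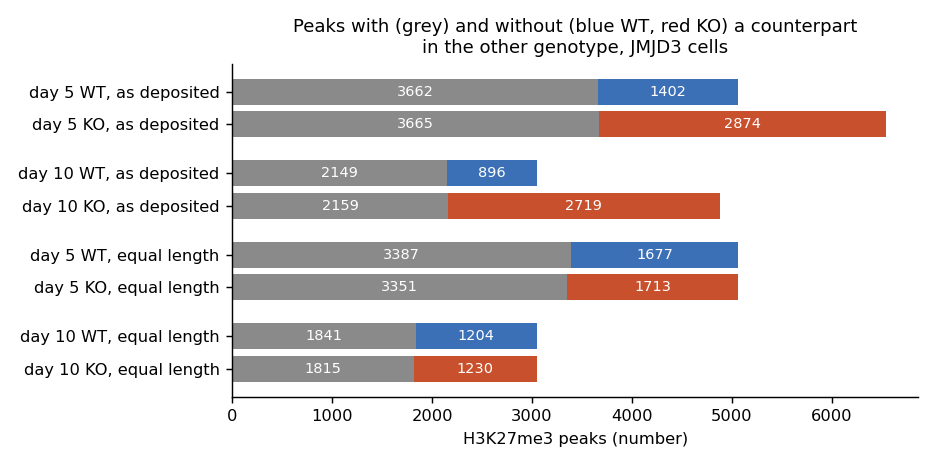
Number of H3K27me3 peaks (horizontal axis) in WT and KO cells with exogenous JMJD3, as deposited and after the longer list of each day was reduced to the length of the shorter one by score. Grey marks peaks that overlap a peak of the other genotype, blue WT-only and red KO-only peaks, and the red bar of 2874 (day 5) or 2719 (day 10) shrinks to 1713 and 1230 at equal length.

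With all 10 lists reduced to 3045 peaks, an alternative chosen with the data known, the genotypes shared less in JMJD3 than in FLAG cells. As deposited, the share of WT peaks differed in the other direction (72.3% with JMJD3 and 63.1% with FLAG on day 5, 70.6% and 60.6% on day 10), while KO peaks were shared less with JMJD3 (56.0% and 71.9%, 44.3% and 57.6%), in lists of unequal length. At 3045 peaks on day 5, 74.2% of WT peaks were shared with JMJD3 and 77.6% with FLAG, a difference of -3.38 points (-5.53 to -1.23). The day 10 shares were 60.5% and 65.5%, a difference of -5.02 points (-7.44 to -2.60). The MEF share of 68.2% lay between the JMJD3 shares of day 5 and day 10.

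Best-scoring peaks lacked a counterpart less often than the lowest-scoring ones in all 4 lists. In the best-scoring quartile of the day 5 lists, 24 of 1266 WT peaks (1.90%, 1.28 to 2.81) and 76 of 1634 KO peaks (4.65%, 3.73 to 5.78) had no counterpart. Day 10 lists gave 35 of 761 WT peaks (4.60%, 3.33 to 6.33) and 205 of 1219 KO peaks (16.8%, 14.8 to 19.02). This share was higher in the longer list of each of the 5 pairs, with 1.74% in WT and 1.28% in KO cells for FLAG on day 5, 6.08% and 6.77% for FLAG on day 10, and 10.99% and 4.28% for MEFs. In the lowest-scoring quartile the shares were 59.95% of WT and 78.3% of KO peaks on day 5, and 55.0% and 83.6% on day 10. Some genotype-specific peaks lay next to a peak of the other genotype. Of the WT-only peaks, 21.5% (19.5 to 23.8) on day 5 and 23.0% (20.4 to 25.9) on day 10 had a KO peak with its midpoint within 5 kb. Of the KO-only peaks, 14.1% (12.8 to 15.4) and 12.03% (10.9 to 13.3) had a WT peak that near. In all 5 pairs this share was higher for peaks particular to the shorter list, and in MEFs, where the WT list was the longer one, it was 35.9% of KO-only and 13.04% of WT-only peaks.

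**Figure D2:**
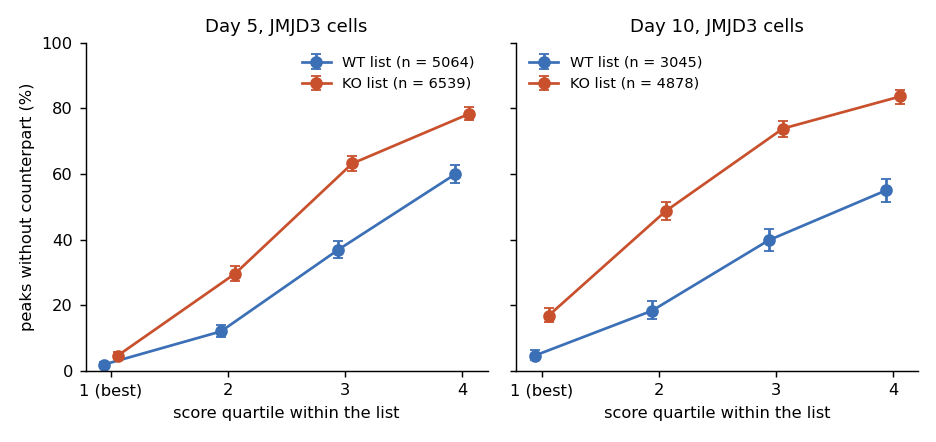
Share of peaks without a counterpart in the other genotype (vertical axis, percent) by quartile of the score within the list, from the best-scoring (1) to the lowest-scoring (4), for WT (blue) and KO (red) JMJD3 cells on day 5 and day 10. Bars are 95% Wilson intervals, and on day 10 the KO share in the best quartile (16.8%) lies above the WT share (4.60%).

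Merging the 4 lists gave 9407 loci, of which 1787 (18.997%, 18.2 to 19.8) were called in all 4 libraries. A further 416 loci (4.42%, 4.03 to 4.86) were called in KO cells on both days and in WT cells on neither, and 55 (0.585%, 0.449 to 0.760) showed the reverse. At equal list length the 2 counts came closer, to 168 and 104. Another 885 loci were called in all libraries except day 10 WT, against 185 called in all except day 10 KO. Of the 416 KO loci, 187 had their midpoint within 5 kb of a TSS, and of the 55 WT loci 15 did.

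Of the KO-both-days loci, the 10 with the highest mean score were nearest to Lhx6, Tbx20, Dmrt3, Hoxc10, Pdx1, Hoxb2, Lmx1b, Cypt12, Dlx5 and Fli1, with mean KO scores from 41.3 at Lhx6 to 29.7 at Fli1. The locus named for Cypt12 lay in intergenic sequence 162161 bp from its TSS, and Fli1 encodes an ETS factor of blood and endothelium. At Lmx1b, a LIM homeobox gene of limb dorsal patterning, the locus chr2:33639521-33641017 scored 28.9 in KO cells on day 5 and 38.4 on day 10. Pdx1, a homeobox regulator of pancreas, had chr5:147270059-147271530 at 47.8 and 23.3. The locus at Lhx6, chr2:36104168-36105270, scored 56.5 and 26.1 in KO cells, and the WT-only peak whose window is printed above (score 50.5) ended just before it. Lhx6 therefore carried a peak in both genotypes on day 5, at neighbouring positions. All 10 of these loci were called in the day 5 WT FLAG list.

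The reverse set comprised loci called in WT on both days and in KO cells on neither. Its 10 best loci were nearest to Six2, Alx1, Prox1, Igf2bp1, Foxb1, Erbb4, Pgk1, Faah, Prdm13 and Rims3, with mean scores from 23.8 to 12.8. Six2, a regulator of kidney progenitors, had an intronic locus at chr17:85685660-85686738 that scored 15.1 in WT on day 5 and 32.5 on day 10. Pgk1, an X-linked gene of glycolysis, had a locus at its promoter, chrX:106186499-106187606, with scores of 7.22 and 20.2 in the WT lists, and was the only one of these 20 loci called in none of the FLAG and MEF lists. Across all 10 lists, 15511 loci were formed. None was called in all 5 KO libraries and no WT library, and 2 were called in all 5 WT libraries and no KO library. These were an exonic site 10384 bp from the St6galnac1 TSS (chr11:116764604-116765641, scores 7.21 to 15.7) and an intergenic site 67982 bp from the Foxb1 TSS (chr9:69827672-69830172, scores 7.82 to 8.75).

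Most genotype-specific peaks were called elsewhere in the series. Of the 2874 day 5 KO-only peaks, 60.5% (58.7 to 62.2) were called in at least 1 of the 6 FLAG and MEF lists, as were 55.7% (53.1 to 58.3) of the 1402 WT-only peaks and 95.4% (94.7 to 96.1) of the shared ones. Day 10 shares were 71.9% (70.1 to 73.5), 63.3% (60.1 to 66.4) and 98.0% (97.4 to 98.6). Day 5 KO-only peaks were called more often in the day 5 WT FLAG list (34.3%, 32.6 to 36.0) than in the day 5 KO FLAG list (28.3%, 26.6 to 29.9), and more often in WT MEFs (30.7%, 29.0 to 32.4) than in KO MEFs (14.6%, 13.4 to 16.0). For day 10 KO-only peaks 40.5% (38.7 to 42.4) were in the WT and 42.4% (40.6 to 44.3) in the KO FLAG list of day 10. These lists differ in length, and the longer ones hold more peaks to overlap. In none of the other 8 H3K27me3 lists were 35.9% (34.1 to 37.6) of day 5 and 23.4% (21.9 to 25.1) of day 10 KO-only peaks found, and 40.9% (38.4 to 43.5) and 30.7% (27.8 to 33.8) of WT-only peaks.

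**Figure D3:**
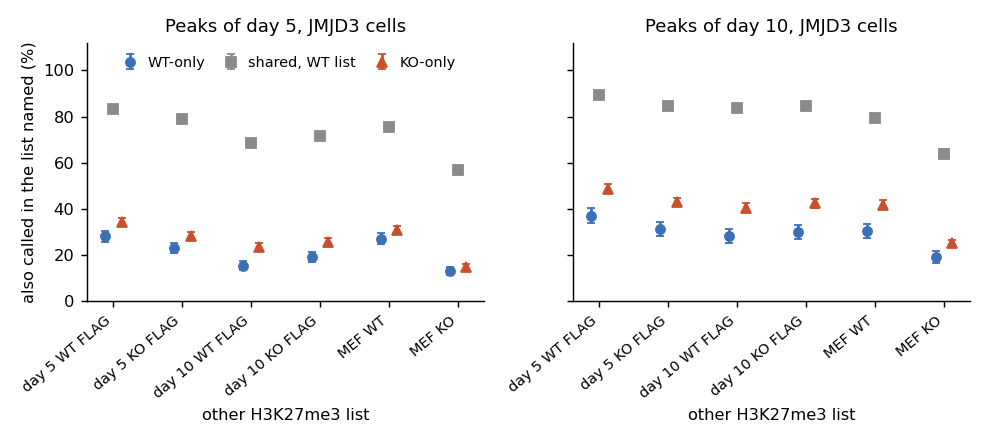
Share of WT-only (blue circles), shared (grey squares, WT list) and KO-only (red triangles) peaks of JMJD3 cells that were also called in each of the 6 FLAG and MEF lists (vertical axis, percent; bars are 95% Wilson intervals). Shared peaks lie above both genotype-specific classes in every list, and day 10 KO-only peaks range from 25.01% in KO MEFs to 48.8% in day 5 WT FLAG cells.

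Shared peaks lay near promoters more often than genotype-specific peaks did. Of the shared day 5 peaks of the WT list, 59.7% (58.1 to 61.3) had their midpoint within 5 kb of a protein-coding TSS, against 29.3% (26.99 to 31.8) of WT-only and 31.4% (29.7 to 33.1) of KO-only peaks. The genotype-specific classes differed by 2.03 points (-0.919 to 4.93). On day 10 the shares were 70.4% (68.4 to 72.3), 38.2% (35.0 to 41.4) and 45.2% (43.3 to 47.0), and KO-only peaks exceeded WT-only peaks by 6.99 points (3.27 to 10.6). At equal list length that difference was 6.20 points (3.03 to 9.35) on day 5 and 13.2 points (9.27 to 17.1) on day 10. Intergenic midpoints made up 54.5% of WT-only, 49.9% of KO-only and 29.6% of shared peaks on day 5, and 46.2%, 38.9% and 22.2% on day 10.

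Base composition differed between the classes in the same order. The median CpG observed/expected ratio, the number of CpGs over that predicted from the C and G content, was 0.494 in shared peaks on day 5, 0.268 in KO-only and 0.243 in WT-only peaks. Day 10 medians were 0.563, 0.348 and 0.304. Peaks with a GC content over 50% and a ratio over 0.6 made up 31.1% (29.6 to 32.6) of shared, 8.39% (7.43 to 9.46) of KO-only and 4.57% (3.59 to 5.79) of WT-only peaks on day 5. The day 10 shares were 42.2% (40.1 to 44.3), 16.4% (15.1 to 17.8) and 8.71% (7.03 to 10.7). Median GC content was 55.1% in shared, 50.1% in KO-only and 46.8% in WT-only peaks on day 5. The WT-only peak with the top score, 200, lay on chromosome 19 in a gap of the assembly without any known base, and was left out of these values.

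**Figure D4:**
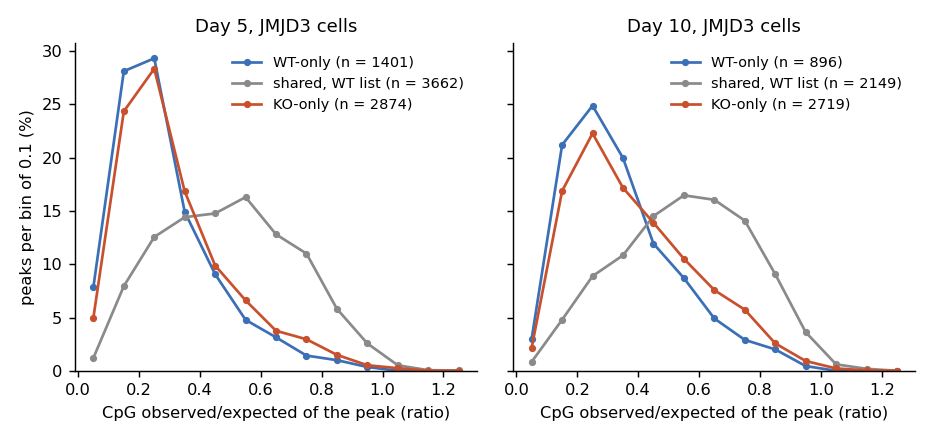
Distribution of the CpG observed/expected ratio (horizontal axis) over WT-only (blue), shared (grey, WT list) and KO-only (red) peaks of JMJD3 cells, as percent of peaks per bin of 0.1. Shared peaks spread to higher ratios (median 0.494 on day 5 and 0.563 on day 10), and the bin from 0.2 to 0.3 is the fullest one of the WT-only and KO-only peaks on both days.

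Genes were counted as marked when a peak midpoint lay within 5 kb of one of their TSSs. Of 21938 protein-coding genes, 2155 were marked in both genotypes on day 5 (9.82%), 635 in KO cells only (2.89%) and 220 in WT cells only (1.00%). On day 10, 1562 were marked in both (7.12%), 962 in KO cells only (4.39%) and 213 in WT cells only (0.971%). At equal list length the KO-only and WT-only shares were 1.97% and 1.36% on day 5, and 2.51% and 1.70% on day 10. Of the 635 day 5 KO-only genes, 157 were KO-only again on day 10, which is 24.7% of the day 5 and 16.3% of the day 10 set, and 35 were WT-only on day 10. Of the 220 day 5 WT-only genes, 10 were WT-only again on day 10 and 28 were KO-only on day 10.

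Developmental transcription factor genes carried most of their marks in both genotypes on day 5 and lost part of them from the WT list by day 10. Over 8 lists together (3 of homeobox genes, and GATA, Sox, T-box, forkhead and basic helix-loop-helix genes) there were 261 genes, of which 206 were marked in WT and 213 in KO cells on day 5, with 200 in common. On day 10, 163 were marked in WT and 211 in KO cells. That left 49 genes marked in KO cells only (18.8%, against 4.39% of all genes) and 1, Dlx1, in WT cells only. Among genes marked in either genotype, 23.1% of 212 developmental genes were KO-only, beside 35.1% of all 2737 marked genes. With lists of equal length the day 10 numbers were 42 KO-only and 9 WT-only, against 551 and 372 of all genes. The FLAG lists of day 10 showed 14 KO-only and 21 WT-only developmental genes, beside 613 (2.79%) and 479 (2.18%) of all genes. Of the 49 KO-only genes, 40 were marked in day 5 WT cells with JMJD3 (81.6%, beside 53.0% of all 962 KO-only genes). In the day 5 KO list 43 were marked (87.8%, beside 66.4%), in the day 10 WT FLAG list 36 (73.5%, beside 60.7%), and in WT MEFs 44 (89.8%, beside 63.0%). For comparison, of all 261 developmental genes these lists marked 206 (day 5 WT JMJD3), 213 (day 5 KO JMJD3) and 195 (day 10 WT FLAG).

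Followed over time, 50 of the 206 developmental genes marked in WT cells with JMJD3 on day 5 were without a peak on day 10 (24.3%, 18.9 to 30.6), compared with 38.7% of all marked genes. In KO cells with JMJD3 11 of 213 were (5.16%, 2.91 to 9.01), compared with 25.3%. FLAG cells of the 2 genotypes lay between, at 11.2% (7.62 to 16.1) for WT and 10.7% (7.19 to 15.7) for KO cells, compared with 28.7% and 22.9% of all marked genes. With every list reduced to 3045 peaks the shares were 20.4% (15.2 to 26.9) for WT and 7.04% (4.24 to 11.5) for KO cells that carried JMJD3, and 17.6% and 20.2% with FLAG. Over all marked genes they were then 28.4% and 18.5% with JMJD3, and 26.0% and 23.7% with FLAG.

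By family, all 39 Hox cluster genes, which set position along the body axis, were marked in KO cells on day 10 and 29 in WT cells. On day 5 these numbers were 38 and 33. The 10 Hox genes marked in KO cells only on day 10 were Hoxa2, Hoxa4, Hoxa7, Hoxa11, Hoxb2, Hoxc4, Hoxc8, Hoxc11, Hoxd8 and Hoxd10, with KO scores from 11.1 at Hoxd8 to 63.2 at Hoxc8. They were 25.6% of the marked Hox genes, below the 35.1% KO-only among all marked genes of that day. Hoxc8 scored 27.8 in WT and 72.1 in KO cells on day 5, and had no WT peak on day 10. Counting peaks across the 4 clusters, a count chosen after its values were seen, gave 63 in WT and 86 in KO cells on day 5, and 41 and 72 on day 10. As a share of the list these were 1.24% (0.974 to 1.59) and 1.32% (1.07 to 1.62) on day 5, and 1.35% (0.994 to 1.82) and 1.48% (1.17 to 1.85) on day 10, so the intervals overlapped. At equal list length the day 10 counts were 41 and 60, or 1.97% (1.53 to 2.53) in KO cells. At equal list length 10 Hox genes were KO-only and 2 WT-only on day 10, beside 551 (2.51%) and 372 (1.70%) of all genes. Marked then were 29 Hox genes in WT and 37 in KO cells, beside 1775 and 1954 of all genes. The 35.1% applies to the lists as deposited only. Hoxa3 had 9 KO-only peaks and 1 WT-only peak on day 5 within the gene and its flanks, which it shares with the overlapping gene model Gm28308.

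Outside the clusters, 14 of 56 further developmental homeobox genes were marked only in KO cells on day 10, against 0 only in WT cells. These were 26.4% of the 53 marked in either genotype, again below the share over all genes. Pitx1, a hindlimb and pituitary regulator, scored 33.1 in WT and 172 in KO cells on day 5 and was without a WT peak on day 10, where KO cells had 58.5. Cdx2, a regulator of trophectoderm and intestine, scored 19.9 and 38.1 on day 5 and had 60.1 in KO cells alone on day 10. Dbx1, active in neural progenitors, scored 35.3 and 59.7 on day 5 and 53.1 in KO cells alone on day 10. All 3 genes were marked in each of the 6 FLAG and MEF lists. Of 17 T-box genes 5 were KO-only on day 10, among them Tbr1 (41.4 in WT and 109 in KO cells on day 5, 27.7 in KO cells on day 10). The 5 were 45.5% of the 11 marked T-box genes, beside 35.1% over all genes. At equal list length 4 T-box genes were KO-only and 1 WT-only, beside 551 (2.51%) and 372 (1.70%) of all genes. T, the brachyury gene of early mesoderm, scored 23.6 and 111 on day 5 and 23.9 in KO cells alone on day 10. Forkhead genes were marked in 22 of 44 cases in WT and 24 in KO cells, Sox genes in 9 and 10 of 18, and GATA genes in 5 of 6 in each genotype. Basic helix-loop-helix genes were marked in 18 of 32 cases in WT and 24 in KO cells, and in 18 in each at equal list length. In each of these last 4 families the KO-only share of marked genes, from 0% to 25%, was below that of all genes.

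Genes for secreted signals and for neuronal receptors were marked in KO cells more often than in WT cells on day 10, as were all genes (2524 in KO, 1775 in WT cells). Of 55 Wnt, Bmp, Fgf and hedgehog ligand genes, 31 were marked in WT and 39 in KO cells, 8 in KO cells only and 0 in WT cells only. The 8 were 20.5% of the ligand genes marked in either genotype, below the 35.1% of all marked genes. Bmp7 scored 54.8 in WT and 78.3 in KO cells on day 5, and 30.0 in KO cells alone on day 10. Of 52 glutamate, GABA and glycine receptor genes, 20 and 31 were marked on day 10, although 28 were marked in each genotype on day 5, and 35.5% of those marked on day 10 were KO-only. With lists of equal length the KO-only counts of the 2 lists were 6 and 7, with 1 WT-only gene in each. Over all genes 551 (2.51%) were then KO-only and 372 (1.70%) WT-only. As controls, 1 of 76 ribosomal protein genes was marked in each library, and of 1093 olfactory receptor genes 3 on day 5 in either genotype and 2 in WT and 5 in KO cells on day 10, or 2 and 1 at equal list length. Of 22 voltage-gated potassium channel genes, 15 were marked in WT and 17 in KO cells on day 10, and of 28 Polycomb and demethylase genes 5 and 6, which turned to 5 and 4 at equal list length.

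**Figure D5:**
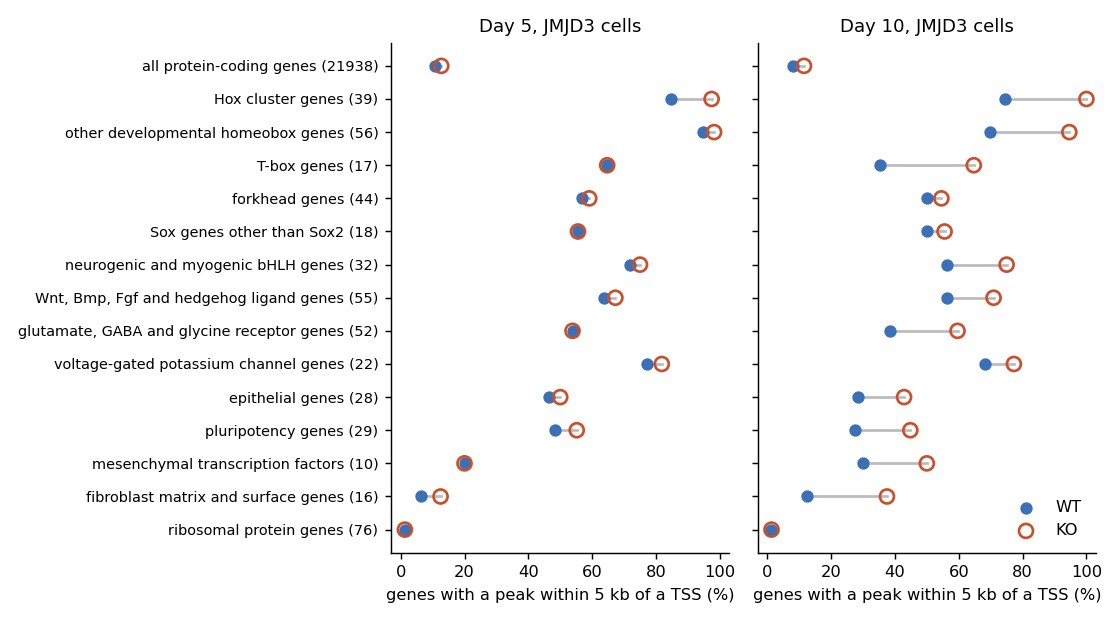
Share of genes of each list carrying an H3K27me3 peak midpoint at most 5 kb from a TSS (horizontal axis, percent) in WT (blue points) and KO (red circles) JMJD3 cells on day 5 and day 10, with the number of genes in brackets and a grey line joining the genotypes. On day 5 the Hox genes show a gap (84.6% in WT, 97.4% in KO cells), and on day 10 the KO share is higher for Hox genes (74.4% in WT, 100% in KO cells) and other developmental homeobox genes (69.6% and 94.6%).

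Epithelial genes were marked in similar numbers on day 5, 13 of 28 in WT and 14 in KO cells, and in 8 and 12 on day 10. The 4 KO-only genes of day 10 were 33.3% of the epithelial genes then marked, close to the 35.1% over all genes. Cdh1, which encodes E-cadherin, was marked only in KO cells on day 5, with a score of 8.83, and in neither genotype on day 10. St14, a membrane protease, was the other KO-only gene on day 5, at 7.89, and Cldn6, a tight junction claudin, was WT-only at 9.29. Counted from the best, these 3 peaks ranked at 71.4%, 79.4% and 64.7% of their lists. Cdh1 was also marked in FLAG cells on day 5, at 36.6 in WT and 31.4 in KO cells, and in MEFs, at 94.6 and 32.6. Epcam, Cldn3, Krt7 and Esrp2 were marked only in KO cells on day 10, with scores from 7.46 to 8.43. None of the 4 was in the KO list of day 10 after its reduction to the length of the WT list, where 0 epithelial genes were KO-only and 1 was WT-only. At equal length on day 5, 1 was KO-only and 2 were WT-only. Over all genes the equal-length counts were 432 (1.97%) and 299 (1.36%) on day 5, and 551 (2.51%) and 372 (1.70%) on day 10. Cdh3, Ocln, Cldn7, Crb3, Esrp1, Grhl2, Ovol1 and Ovol2 were marked in all 4 libraries. Esrp1, a splicing regulator of epithelial cells, scored 58.1 in WT and 170 in KO cells on day 5, and 8.47 and 45.5 on day 10. Cldn4 was marked in both genotypes on day 5 only, and Tjp3, Dsp, Pkp1, Pkp3, Krt8, Krt18, Krt19, Rab25, Grhl3, Elf3, Klf5 and Trp63 in no library.

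Of 29 pluripotency genes, 14 were marked in WT and 16 in KO cells on day 5, and 8 and 13 on day 10. On day 5, 3 were KO-only and 1 was WT-only, beside 635 (2.89%) and 220 (1.00%) of all genes. On day 10, 5 of the 13 marked in either genotype were KO-only (38.5%, beside 35.1% over all genes). Among the early-activated genes, Tdh, which encodes threonine dehydrogenase, was marked only in KO cells on day 5 (16.9) and in neither genotype on day 10. The day 5 FLAG lists had Tdh peaks of 18.9 in WT and 11.9 in KO cells. Sall4 and Sall1, zinc finger factors, were marked in both genotypes on day 5, with 21.5 in WT and 70.9 in KO cells for Sall4. On day 10 they were marked only in KO cells, at 8.19 and 9.21. Among the late-activated genes, Tfcp2l1 and Tdgf1 were KO-only on day 5, at 9.14 and 7.59, and Mycn was KO-only on day 10, at 11.8. Utf1, Esrrb, Lin28a and Nr5a2 were marked in all 4 libraries. Esrrb scored 99.5 in WT and 200 in KO cells on day 5, and 37.3 and 70.3 on day 10. Dppa5a, Nanog, Dppa4 and Zfp42 were marked in none. Of the other pluripotency genes, Prdm14, Fgf4 and Otx2 were marked in all 4 libraries, and Nr0b1 and Lefty2 in both genotypes on day 5 only. Nodal and Tbx3 were KO-only on day 10, at 12.02 and 8.33. Klf2 was WT-only on day 5, at 7.26, and marked in both genotypes on day 10. Dppa2, Dppa3, Lefty1, Gdf3, Fbxo15 and Tcl1 were likewise marked in none. With lists of equal length 2 pluripotency genes were KO-only and 1 was WT-only on day 5, beside 432 (1.97%) and 299 (1.36%) of all genes. On day 10 they were 2 and 0, beside 551 (2.51%) and 372 (1.70%), and Sall4 and Sall1 were no longer in the KO list.

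The Cdkn2a gene, which encodes the cell-cycle inhibitors INK4A and ARF, was marked in 1 of the 4 libraries, day 5 KO (13.5). It was also marked in the day 5 FLAG lists, at 12.2 in WT and 7.36 in KO cells. The other CDK inhibitor gene with a peak was Cdkn1c, an imprinted gene, which was KO-only on day 5 (26.0) and scored 21.5 in WT and 45.9 in KO cells on day 10. Cdkn2b, Cdkn2c, Cdkn2d, Cdkn1a and Cdkn1b were marked in none. Of the genes on the transduced vectors, Sox2, Klf4 and Myc were marked in all 4 libraries, with the KO score higher on both days, and Pou5f1 in day 10 WT cells alone (11.9). Reads from the vectors cannot be told apart from reads of these genes. That also holds for Kdm6b, whose coding exons carried a peak in 3 of the 4 libraries, more than 5 kb from its TSSs. It scored 18.5 in WT and 40.8 in KO cells on day 5, and 23.4 in KO cells on day 10. No peak was called on Kdm6b in any of the FLAG and MEF lists. Because of the vector reads, the knockout could not be checked here. Fibroblast matrix and surface genes were marked in 1 of 16 cases in WT and 2 in KO cells on day 5, and in 2 and 6 on day 10. Their KO-only genes of day 10 were Col1a1, Thy1, Postn and Fbn1, at 9.17, 21.01, 6.74 and 7.53. These were 4 of the 6 marked in either genotype (66.7%, beside 35.1% over all genes). After list lengths were made equal, 1 of them, Thy1, remained KO-only, beside 551 (2.51%) of all genes. Mesenchymal transcription factor genes were marked in 2 of 10 cases in each genotype on day 5, and in 3 and 5 on day 10, when more genes were marked in KO cells over all genes too (2524, against 1775 in WT cells). A repressive mark alone does not show which cells were present.

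The 5 best-scoring KO-only peaks of day 5 were nearest to Neurog1 (119), Tbr1 (109), Plxnc1 (82.7), Calcoco1 (73.7, at a distance of 23678 bp) and Wnt3 (72.4). Neurog1, a neuronal determination factor, also had a WT peak within 5 kb (36.6), and Tbr1 had one too (41.4), so these genes were marked in both genotypes. At Plxnc1, a semaphorin receptor, the KO-only peak chr10:94943908-94944907 was next to a WT-only peak, chr10:94942885-94943884, which scored 62.9 and ranked second among the WT-only peaks. After the peak in the assembly gap and that at Plxnc1, the WT-only peaks of day 5 followed with Tcf21 (50.9, at 22311 bp), Lhx6 (50.5) and Otp (49.2). On day 10 the KO-only peaks with the highest scores were nearest to Nhlh2 (96.2), Hoxc8 (63.2), Cdx2 (60.1), Lhx1 (54.5, at 117184 bp) and Fev (53.3), and the WT-only ones to Six2 (32.5), Ephb2 (29.8), Hoxc13 (25.4), Vps37d (24.6, at 11557 bp) and Foxd4 (23.4). The shared peaks with a score of 200 in both WT lists were nearest to Aida, Gm10800, Rpusd4 and Esp38 and were called in all 10 lists of the series. Trp73 (200) completed the first 5 of day 5 WT cells, and Gm8797 (192.8) those of day 10. The day 5 WT peaks at Aida, Gm10800, Rpusd4, Esp38 and Trp73 were 15%, 86.6%, 58.8%, 33.6% and 1.9% repeat-masked. The day 10 WT peak at Gm8797 was 48.3% repeat-masked. Peaks in repeats were not removed from the lists, and whether such calls reflect the mark was not tested. In the day 5 KO list the first 5 shared peaks in genome order, all at 200, were nearest to Sox17, Tcf24, Cdk5r2, Fibcd1 and Dgkz.

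Several genotype-specific peaks could lie on 1 gene. Gm20388, a gene model that spans chr8:119910841-124345722, had 24 KO-only and 8 WT-only peaks on day 5 and 29 and 10 on day 10, more than any other gene in each class. After it, day 5 WT-only peaks were most frequent on Clybl, Cux2 and Disc1 (4 each), with Acoxl one of 20 genes with 3. Day 5 KO-only peaks were most frequent on Gm28308 and Hoxa3 (9 each), Cfap77 (6) and 8 genes with 5, Acoxl among them. On day 10, KO-only peaks were most frequent on Lmx1b (8), Fgfr2 (7), and 7 genes with 5, Gata4 and Gm28308 among them. As annotated, Fgfr2 spans chr7:130162451-133123350, and a peak anywhere in that span was counted. WT-only peaks of day 10 were most frequent on Prdm16 and Rax (4 each), followed by 6 genes with 3, Cdh22 and Cfap77 among them. Gata4, a regulator of heart and endoderm, had 0 WT-only and 3 shared WT peaks on day 10.

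KLF4 and JMJD3 binding was measured on day 5 in WT cells. A KLF4 peak (14391 peaks in cells with JMJD3) lay within 5 kb of 10.5% (9.47 to 11.7) of day 5 KO-only, 10.3% (8.79 to 11.97) of WT-only and 14.5% (13.4 to 15.6) of shared peaks. KO-only and WT-only peaks differed by 0.272 points (-1.74 to 2.16), a difference whose interval included 0. KLF4 peaks inside the H3K27me3 peak were found at 2.47% (1.96 to 3.10) of KO-only and 0.927% (0.543 to 1.58) of WT-only peaks, which differed by 1.54 points (0.717 to 2.28). For FLAG-JMJD3, with 14067 positions, the shares were 4.52% (3.82 to 5.35), 4.28% (3.34 to 5.47) and 4.59% (3.96 to 5.31), and the difference was 0.244 points (-1.14 to 1.49). On day 10 a KLF4 peak was near 11.99% (10.8 to 13.3) of KO-only and 14.5% (12.4 to 16.97) of WT-only peaks, a difference of -2.52 points (-5.24 to -0.0157). Its interval included 0 at equal list length (-2.45 points, -5.27 to 0.366) and within 20 kb (-1.43 points, -4.89 to 1.90). For KLF4 peaks inside the H3K27me3 peak the difference was 0.347 points (-0.848 to 1.27), with an interval that also included 0. Among day 10 peaks within 5 kb of a TSS it was -6.80 points (-12.2 to -1.76), with a KLF4 peak near 20.7% of 1228 KO-only and 27.5% of 342 WT-only peaks. JMJD3 positions were near 7.90% and 11.4% of these, a difference of -3.50 points (-7.55 to -0.129). For day 5 peaks within 5 kb of a TSS both intervals included 0, at 1.26 points (-3.78 to 6.00) for KLF4 and -1.04 points (-4.42 to 1.88) for JMJD3. Among these day 5 peaks KLF4 was near 19.8% of shared and 23.6% of KO-only peaks of the KO list (-3.84 points, -7.15 to -0.674). Shared minus WT-only peaks of the WT list gave -2.59 points (-7.16 to 1.55). Farther than 5 kb from a TSS the KO list gave 2.07 points (0.530 to 3.69), so the higher share of shared peaks did not hold near TSSs. Over all day 10 peaks the JMJD3 difference was -0.656 points (-2.56 to 0.981), and 0.763 points (-1.23 to 2.75) at equal list length.

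Sex chromosomes held few peaks of each class. The X chromosome held 0.974% (0.675 to 1.40) of KO-only and 0.856% (0.490 to 1.49) of WT-only peaks on day 5, and 0.699% (0.448 to 1.09) and 0.670% (0.307 to 1.45) on day 10, and the Y chromosome at most 1 peak of a class. Around Kdm6b on chromosome 11, the locus of the knockout allele, 34.9% (25.6 to 45.7) of 83 day 5 KO peaks within 10 Mb had no WT counterpart, against 42.8% (38.3 to 47.5) of 439 on the rest of that chromosome. Day 10 shares were 57.1% (45.5 to 68.1) of 70 and 52.2% (46.7 to 57.6) of 322, and in WT cells they were 26.0% and 27.5% on day 5 and 30.2% and 30.1% on day 10. Whether the strain of this region bears on the peaks was not tested.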

How the data were processed

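Peak lists of H3K27me3 ChIP-seq, deposited by the authors for each library, were used with the KLF4 and FLAG-JMJD3 lists of day 5 WT cells. According to the study's methods, reads were aligned to mm10 with Bowtie2 (version 2.2.0 in the submitters' processing notes) and peaks were called per library, by DFilter (H3K27me3) or MACS2 (KLF4, JMJD3). Drosophila cells served as a spike-in, and the methods scale mouse H3K27me3 reads to the Drosophila reads. Whether the deposited calls and scores carry this scaling was not stated, and a peak number is not an amount of the mark. The deposited score was used to rank and filter peaks within a list. It was also compared across lists (a common minimum of 20, and the scores of partnered peaks), although a common scale was not stated. Deposited KLF4 intervals and JMJD3 positions were used by place only.

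Groups came from the labels. Peaks sharing 1 bp or more counted as overlapping. TSSs and exons were those of 21938 protein-coding genes in GENCODE M21 basic, and sequence came from GRCm38.p6. Members, gene lists (23) and rules were chosen with earlier results of these data known. Members of the epithelial, pluripotency, CDK inhibitor and vector lists were named, with the 5 best-scoring peaks per class and day, the 5 genes with the most WT-only or KO-only peaks, the 10 best loci seen on both days, and loci called in all libraries of 1 genotype only. Alternatives covered the overlap rule, list length, score, distance and sex chromosomes. Overlap counts were checked against bedtools 2.31.1 and tested on simulated lists. Python 3.11.15, numpy 2.4.6, pysam 0.24.0 and samtools 1.23.1 were used. The other KLF4 and JMJD3 lists, the inputs and the H3K27ac samples were not used here, and some members of the gene lists are not reported here.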

Additional observations from a re-analysis of the deposited data

Results flagged for a closer look

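The KO/WT ratio of H3K27me3 peak numbers on day 5 lay on opposite sides of 1 in the 2 kinds of cells, at 1.29 with exogenous JMJD3 and 0.878 with the FLAG vector. Each ratio rests on 2 libraries, and the difference was not tested.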

How the results depend on the processing

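Lists were compared again under other rules. Requiring an overlap of 50% of the peak lowered the shared shares to 62.3% (WT) and 48.2% (KO) on day 5 and 58.5% and 36.6% on day 10, and at equal list length to 58.0%, 57.6%, 50.8% and 50.5%. Counting peaks within 1 kb as shared gave 75.4%, 58.7%, 74.4% and 46.9%, and at equal length 69.7%, 68.7%, 64.0% and 62.5%. With a score of at least 20 the shares were 90.6%, 57.6%, 79.6% and 29.8%, and with the better-scoring 50% of each list 82.8%, 64.1%, 76.0% and 47.4%. Reducing all lists to 3045 peaks, the shortest JMJD3 list (as the shortest of the 10, and for loci of both days, chosen after seeing the data), gave 74.2% and 74.2% on day 5 and 60.5% and 59.6% on day 10. A score of at least 20 moved the KO/WT ratio to 1.57 on day 5 and 2.67 on day 10, and the WT-only genes to 54 and 60. At 3045 peaks the day 5 KO-only genes were 312, and the day 10 genes were 551 KO-only and 372 WT-only, as at equal length. At equal length KO-only minus WT-only peaks near a TSS was 6.20 and 13.2 points, and the loci of both days were 168 (KO) and 104 (WT), or 170 and 88 at 3045 peaks. The day 10 KLF4 difference turned to 0.347 points (-0.848 to 1.27) when KLF4 had to lie inside the peak. The remaining 54 repeats stayed within 1.5 times a count or within the counting interval of a value. Among them, day 5 genes ran from 432 to 818 (KO-only) and from 179 to 299 (WT-only), and JMJD3 differences changed sign (-0.810 points on day 5 within 20 kb, 0.763 points on day 10 at equal length). Of the repeats for gene lists, base composition and distances, 462 stayed within these limits and 214 did not. Where the setting does not itself remove peaks, the cause was not tested. Most of the lowest-scoring quartile of each JMJD3 list was genotype-specific. No paired analysis was possible because each group had 1 library, and none could be left out for the same reason.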
